A study of Saccharomyces cerevisiae with 177 samples.

Results

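The cell wall of budding yeast is a layer of β-1,3-glucan, β-1,6-glucan and chitin to which mannoproteins are bound. Glucan synthase at the plasma membrane spins the β-1,3-glucan, GPI-anchored mannoproteins are linked to it through β-1,6-glucan, and Pir proteins are bound to β-1,3-glucan directly. Wall damage and heat are sensed by the cell wall integrity pathway, a cascade through Pkc1 and the MAP kinase Slt2 that acts on the transcription factor Rlm1 and raises many wall genes. The 10 genes described here are a named set of wall genes, found by their systematic names among the 5794 genes of each file. The rule that names them uses no measured value, but the set was chosen with earlier results of these data known.

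The set spans wall mannoproteins, Pir proteins, glucan synthase and a remodelling enzyme. CWP1 (YKL096W, chrXI:261132-261851, plus strand), CWP2 (YKL096W-A, chrXI:259253-259531, plus strand), TIP1 (YBR067C, chrII:372103-372735, minus strand) and CCW12 (YLR110C, chrXII:369697-370098, minus strand) encode GPI-anchored mannoproteins. SED1 (YDR077W, chrIV:600793-601809, plus strand) encodes a further GPI-anchored glycoprotein, known as a main structural wall protein under stress and in stationary phase. HSP150 (YJL159W, chrX:120449-121690, plus strand) and PIR3 (YKL163W, chrXI:144401-145378, plus strand) encode O-mannosylated Pir proteins. FKS1 (YLR342W, chrXII:809997-815627, plus strand) encodes the main catalytic subunit of β-1,3-glucan synthase and GSC2 (YGR032W, chrVII:548264-553951, plus strand), also called FKS2, the alternate subunit known for its use under stress. CRH1 (YGR189C, chrVII:876669-878192, minus strand) encodes a transglycosylase that joins chitin to glucan. Coordinates are those of the coding regions in the R64 reference assembly, the one that sacCer3 also names.

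The series holds 177 libraries of newly made RNA, labelled with 4-thioU for 5 min in cells grown at 30 °C in synthetic complete medium, in 60 groups of 1 strain and 1 treatment. Its question is how far each part of Mediator, which bridges DNA-bound activators and RNA polymerase II, is needed for new transcription. Mediator has a head (with Med6 and Med17), a middle (with Med1, Med7, Med9, Med10, Med19, Med21 and Med31), a tail that many activators bind (Med2, Med3, Med5, Med15 and Med16), the scaffold Med14 that joins them, and a kinase module of Cdk8, cyclin C, Med12 and Med13. In 22 comparisons a factor fused to 3xV5 and an IAA7 degron was depleted with 3-indoleacetic acid (3IAA) and set against DMSO in the same strain. In 6 comparisons a deletion or mutant strain was set against a control strain, and in 4 comparisons the stresses labelled HS and SM were set against no stress, or Med15 depletion (labelled IAA there) was set against DMSO within 1 of them. Each group had 3 libraries, except Med7_EWE3, Med21_EWE4 and Med21_WT with 2.

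Every strain was MATα and carried lesions in ADE2, LEU2, LYS2, MET15, TRP1 and URA3 and, as labelled, in HIS3. All strains but WT (BY4705), med15del and med16del also carried pGPD1-OSTIR::HIS3, which makes the receptor that 3IAA acts through from the GPD1 promoter, so the mutants and their controls other than these carried it without a degron. The strains CCL1, CDK8 (degron on SRB10), Med12, Med1, Med5, Med7, Med10, Med14, Med15, Med16 and Med17 carried RPB3-3xFlag::NATMX, as did Med1_5 (MED1 and MED5 tagged), Med2_15 (MED15 and MED2 tagged) and Med14C. The strains Med9, Med19, Med31, Med15_Med16 (both tagged) and Med15_Taf1 (MED15 and TAF1 tagged) carried no RPB3 tag, nor did TID, Med7C, Med7N or the mutants and their controls. The degron of Med17 and Med9 and that of MED16 in Med15_Med16 is labelled a mini degron. The genotype label of the Med31 libraries names MED19 as the tagged gene, and the titles were followed. In Med7C and Med7N the MED7 gene was deleted and 2 plasmids supplied its parts, med7DC with med7DN-mini degron in Med7C and mini degron-med7DC with med7DN in Med7N. The TID strain lacked the MED14 gene and carried med14DTID beside a degron-tagged med14 TID, both from the RGR1 promoter on plasmids. Med14C had a degron on MED14 and another on a TID-less copy held on a plasmid, beside a partial copy on another plasmid. Strain med15del was Dgal11::HPH and med16del was Dsin4::TRP1, both set against WT. Strain med7N_del carried med7DN on a TRP1 plasmid and Med7_EWE3 carried med7 EWE3 on a LEU2 plasmid, both in med7D::KanMX cells set against Med7_WT with MED7 on a LEU2 plasmid. Med21_EWE4 and Med21_WT carried med21 EWE4 or MED21, and Med6_delH1 and Med6_WT carried med6 lacking residues 13-20 of helix 1 or MED6, each on a LEU2 plasmid in cells deleted for the gene. The stress libraries came from the Med15 degron strain (SHY1055), with no 3IAA library outside stress among them.

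The 162 libraries outside the stress experiment hold a scaled signal, with library totals between 55215 and 1085499.8 units, and the 15 stress libraries hold 4384651 to 10032201 counts. Whole reads could be recovered for 106 signal libraries, at 2119071 to 10714175 reads, and the depth of the other 56 is unknown. The DMSO controls of Med7, Med14 and Med15 stood apart: over 4589 genes their mean log2 profiles correlated with each other at 0.965 to 0.982 and with 25 other control groups, the unstressed one included, at 0.69 to 0.85, while those 25 correlated with each other at 0.828 to 0.994. The α-cell genes MF(ALPHA)1, STE3 and SAG1 had control-group means of at least 21.5 units and MF(ALPHA)2 of 4.01 to 238, and the a-cell genes MFA1, MFA2 and AGA2 had at most 1.33, with STE2 and BAR1 at most 4.08 and STE6 at 3.05 to 34.5.

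In CPM (counts or signal scaled to a common library total) per kilobase of coding length, SED1, CWP2, HSP150 and CCW12 were the 4 highest members in 26 of 27 control groups outside stress and PIR3 was the lowest in all 27 of them. The median level over the 27 control groups was 3667 for SED1, 3431 for CWP2, 2577 for HSP150 and 1962 for CCW12 on that scale. TIP1 at 465 and CRH1 at 436 came next, then FKS1 at 158, CWP1 at 144, GSC2 at 41.6 and PIR3 at 2.19. The ranges of neighbours in this order overlapped between groups, except those of GSC2 (23.9 to 125) and PIR3 (0.909 to 9.72). They were wide, as SED1 ran from 559.8 to 10572 and CWP1 from 8.26 to 403. The Med7, Med14 and Med15 controls lay outside the range of the others for 3 members, with FKS1 at 315 to 347 (other controls 117 to 228), CCW12 at 5089.6 to 7359 (others 828 to 4189) and HSP150 at 1063 to 1314 (others 1495 to 6079). Of the 50-base windows of the coding region, 10.8% in PIR3, 7.38% in HSP150 and 4.75% in SED1 occur more than once in the genome. Repeats within the gene itself were counted with copies elsewhere, so whether reads of other genes enter these values was not tested. None occur more than once in the other 7 members, FKS1 and GSC2 included.

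The windows from 250 bases before to 50 after the start of the coding region are shown for CWP1, TIP1 and GSC2, the members that went their own way most often below, and for CCW12 and HSP150, which moved more alike. They were read from the R64 genome of RefSeq and run 5′ to 3′ on the strand of the gene, and capitals mark each match to the motifs listed after them.
CWP1 (chrXI:260882-261181, plus strand): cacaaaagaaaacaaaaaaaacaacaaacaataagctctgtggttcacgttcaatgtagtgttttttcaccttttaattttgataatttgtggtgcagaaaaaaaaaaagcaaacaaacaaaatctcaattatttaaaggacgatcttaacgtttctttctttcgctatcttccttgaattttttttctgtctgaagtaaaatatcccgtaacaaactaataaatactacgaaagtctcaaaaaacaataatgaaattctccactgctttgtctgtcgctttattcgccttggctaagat
TIP1 (chrII:372686-372985, minus strand): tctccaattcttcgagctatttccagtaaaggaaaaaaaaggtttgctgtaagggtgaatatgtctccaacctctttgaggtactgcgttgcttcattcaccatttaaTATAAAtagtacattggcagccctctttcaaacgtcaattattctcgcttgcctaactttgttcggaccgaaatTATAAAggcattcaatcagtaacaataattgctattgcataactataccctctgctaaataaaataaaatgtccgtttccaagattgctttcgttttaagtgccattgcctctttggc
GSC2 (chrVII:548014-548313, plus strand): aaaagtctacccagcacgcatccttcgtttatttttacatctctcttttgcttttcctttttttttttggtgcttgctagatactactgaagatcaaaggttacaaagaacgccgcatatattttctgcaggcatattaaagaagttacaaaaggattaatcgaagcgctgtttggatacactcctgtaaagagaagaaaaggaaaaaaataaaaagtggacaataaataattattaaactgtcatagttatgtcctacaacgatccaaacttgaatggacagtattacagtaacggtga
CCW12 (chrXII:370049-370348, minus strand): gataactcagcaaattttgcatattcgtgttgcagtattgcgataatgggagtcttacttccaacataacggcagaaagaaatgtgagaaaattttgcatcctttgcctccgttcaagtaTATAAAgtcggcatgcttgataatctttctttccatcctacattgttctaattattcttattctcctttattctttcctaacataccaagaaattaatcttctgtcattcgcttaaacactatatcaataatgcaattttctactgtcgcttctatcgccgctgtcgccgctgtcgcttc
HSP150 (chrX:120199-120498, plus strand): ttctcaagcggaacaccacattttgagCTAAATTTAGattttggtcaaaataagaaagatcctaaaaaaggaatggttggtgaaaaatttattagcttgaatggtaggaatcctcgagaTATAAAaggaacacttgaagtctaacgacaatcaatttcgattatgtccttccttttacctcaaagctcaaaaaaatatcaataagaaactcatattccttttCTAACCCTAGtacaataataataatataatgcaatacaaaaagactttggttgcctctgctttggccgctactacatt

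The letters TATAAA, the core of a TATA element, occurred on either strand in 7 of 10 members and 44.6% of all 5792 windows. Matches began 131 bases before the start in CWP2 and HSP150, 130 in CCW12 and 164 in CRH1. SED1 had matches at 131 and 54 bases and TIP1 at 142 and 68. PIR3 had them at 13 and −6, the latter inside the coding region, and the windows of CWP1, FKS1 and GSC2 held none. AGGGG, the core of the stress element bound by Msn2 and Msn4, occurred in 1 of 10 members and 21.8% of all 5792 windows, and the member was SED1. GAANNTTC or TTCNNGAA, parts of a heat shock element, occurred in 2 of 10 members and 22.9% of all 5792 windows, in FKS1 and CRH1. CTA and TAG with any 4 bases between, a looser pattern than the Rlm1 box, which has A or T there, was searched as well. It occurred in 1 of 10 members and 5.63% of all 5792 windows. HSP150 held 2 matches, CTAAATTTAG and CTAACCCTAG, and only the former has A or T at all 4 places. The stricter pattern was not counted over all windows. CGCGAAA of the factor SBF and TGACTC of Gcn4 occurred in 0 of 10 members and in 3.66% and 8.15% of all windows. No matches shared a base within a member.

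Each comparison outside stress was tested with limma on log2(signal + 1) over genes that averaged 10 or more units, and a gene changed where its adjusted p was under 0.05. The added 1 makes the log2 change of a low gene such as CWP1 smaller than the ratio of its means. On the deposited scale over 90% of genes were lower in 14 depletions and mutants, so the change after TMM scaling, which sets the typical change near 0, is given beside it. These are bulk libraries, in which fewer cells making an RNA and less RNA per cell cannot be told apart. PIR3 stayed under the filter in all 28 signal comparisons and CWP1 in 2 of them, Med15 and Med17. After TMM scaling TIP1 was higher in 19 of 28 comparisons and lower in 2, and GSC2 was higher in 11 and lower in 3. CRH1 was lower in 22 and higher in 1, CCW12 lower in 18 and higher in 4, and HSP150 lower in 17 and higher in 4. CWP1 was lower in 15 and higher in 6 of the 26 in which it was tested, CWP2 lower in 13 and higher in 6, SED1 lower in 11 and higher in 9, and FKS1 lower in 6 and higher in 6. In several of its 26 CWP1 passed the filter only through the control group, which favours finding it lower. Med31, Med7N, med15del, med7N_del and Med6_delH1 are among them. Some of these comparisons share control libraries.

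**Figure D1:**
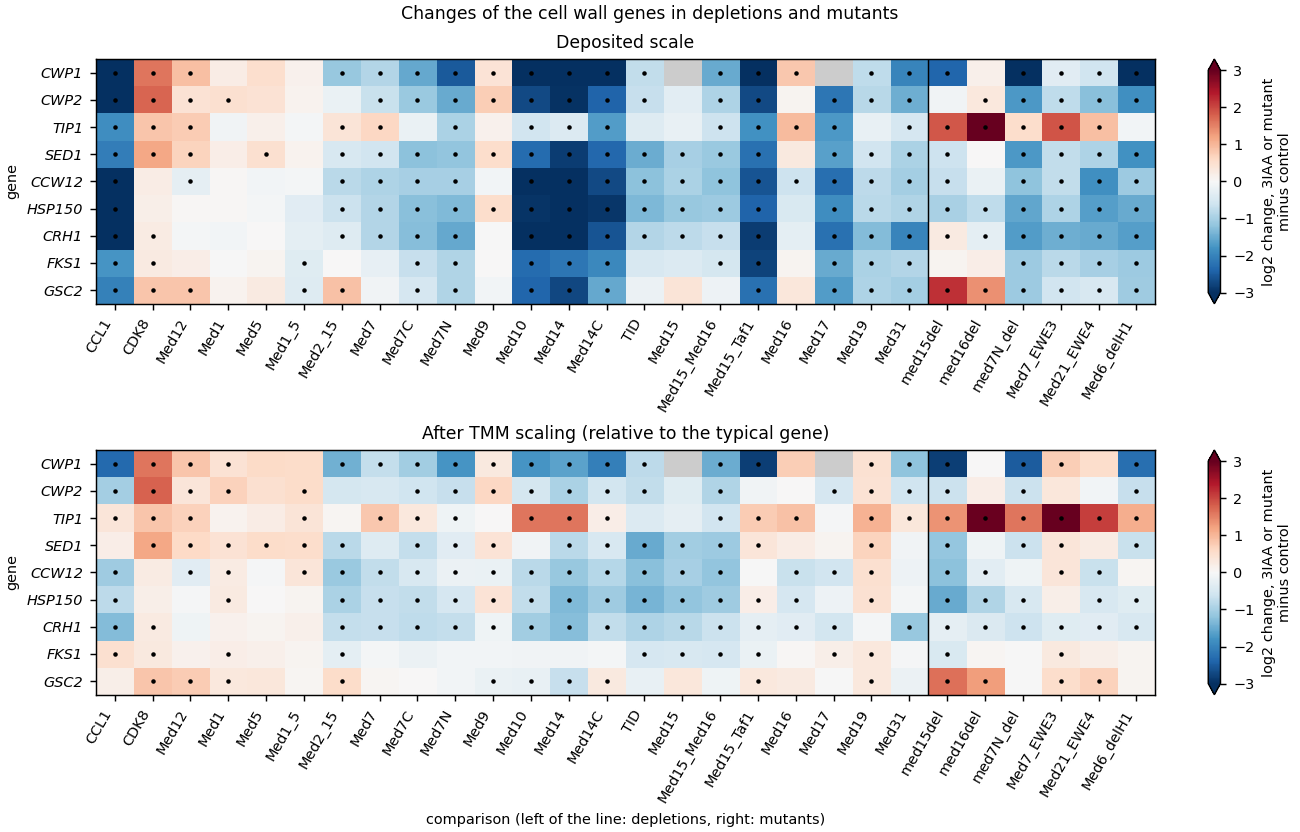
Log2 change (3IAA or mutant minus control) of 9 members, down, in the 28 signal comparisons, across, on the deposited scale (top) and after TMM scaling (bottom). Dots mark adjusted p under 0.05, grey marks genes under the filter and colours end at 3 in either direction. After TMM scaling CWP1 is lowest in Med15_Taf1 and med15del at −2.83 in both, and TIP1 is highest in Med7_EWE3 at 2.99.

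Depletion of the TFIIH cyclin Ccl1, of Med10, Med14, Med14C or Med17, or of Med15 with the TFIID subunit Taf1 lowered every tested member on the deposited scale, as it did nearly all genes. Relative to the typical gene CWP1 fell in each of the 5 where it was tested, CRH1 fell in all 6, and TIP1 rose in 5, Med17 excepted. CWP1 passed the filter in its 5 strains only through the controls, with means after 3IAA from 0.61 in CCL1 to 3.45 in Med15_Taf1, which favours finding a fall. After Ccl1 depletion, 9 of 9 tested members were lower (99.8% of genes), and after TMM scaling 5 lower (38.2%) and 2 higher (36.6%). In Med10, 9 of 9 tested members were lower (99.8% of genes), and after TMM scaling 6 lower (36.6%) and 1 higher (36.1%). In Med14, 9 of 9 tested members were lower (99.7% of genes), and after TMM scaling 7 lower (28.6%) and 1 higher (28.6%). In Med14C, 9 of 9 tested members were lower (99.9% of genes), and after TMM scaling 6 lower (33.1%) and 2 higher (32.4%). In Med17, 8 of 8 tested members were lower (99.7% of genes), and after TMM scaling 3 lower (28.5%) and 1 higher (26.4%). After the double depletion of Med15 and Taf1, 9 of 9 tested members were lower (99.9% of genes), and after TMM scaling 3 lower (38.5%) and 4 higher (36.4%). The members' counts on the deposited scale are those of almost any gene. After TMM scaling the median of the members was −0.79 in CCL1, −0.52 in Med10, −0.95 in Med14, −0.55 in Med14C, −0.09 in Med17 and −0.01 in Med15_Taf1, where the median of all genes was −0.03 in CCL1 and at most 0.02 from 0 in the others.

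CWP1 fell in each of these strains in which it was tested. It had 3.28, 3.22 and 3.84 units of signal in the Med15_Taf1_3IAA libraries, against 173, 151 and 165 in the Med15_Taf1_DMSO libraries, and the groups lay far apart. That was a log2 change of −5.21 ± 0.09 (SE, adjusted p = 1.36e-43) and −2.83 ± 0.08 (adjusted p = 7.68e-12) after TMM scaling, with a mean 47.3-fold lower in the depleted cells. In the CCL1 strain CWP1 had 0.73, 0.64 and 0.45 units of signal in the CCL1_3IAA libraries, against 18.1, 43.9 and 16.2 in the CCL1_DMSO libraries. The DMSO library B was well above the other controls there, and a log2 change of −3.94 ± 0.26 (SE, adjusted p = 1.04e-09) was found (−2.34 after TMM scaling). In Med10 the values were 4.11, 3.35 and 2.28 in the Med10_3IAA libraries, against 63.6, 54.2 and 47.2 in the Med10_DMSO libraries, with a log2 change of −3.73 ± 0.14 (SE, adjusted p = 6.62e-13) and −1.76 after scaling. Med14 gave 2.23, 1.83 and 2.18 in the Med14_3IAA libraries, against 43.7, 18.8 and 35.5 in the Med14_DMSO libraries, with a log2 change of −3.37 ± 0.22 (SE, adjusted p = 8.69e-16) and −1.61 after scaling. In each of these strains the groups did not overlap. Its change after scaling was −2.06 in Med14C, and in Med17, where it stayed under the filter, its signal was 0.13, 0.2 and 0.07 after 3IAA and 2.42, 2.33 and 1.29 with DMSO.

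CWP2, which lies upstream of CWP1 on the same strand of chromosome XI, fell with it in most of these strains but by less. Its signal was 63.2, 72.5 and 73 in the Med10_3IAA libraries, against 533, 458 and 399 in the Med10_DMSO libraries, which is a log2 change of −2.71 ± 0.09 (SE, adjusted p = 1.2e-13) and −0.52 relative to the typical gene. After TMM scaling CWP2 changed by −1.03 in CCL1, −0.95 in Med14, −0.55 in Med14C and −0.49 in Med17, each past the threshold. In Med15_Taf1 it kept to the typical gene at −0.12 ± 0.13 (adjusted p = 0.415).

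TIP1 lost the least of the tested members in Med10 and Med14. Its signal was 57.2, 59.4 and 51.8 in the Med10_3IAA libraries, against 90.7, 81.6 and 80.6 in the Med10_DMSO libraries, a small loss of −0.58 ± 0.07 (adjusted p = 7.05e-07) in a strain whose typical gene changed by −2.13. After TMM scaling that is a rise of 1.60 ± 0.06 (adjusted p = 4.56e-09). In Med14 its signal was 37.5, 36 and 40.2 in the Med14_3IAA libraries, against 58.5, 41.8 and 53 in the Med14_DMSO libraries, with a log2 change of −0.41 ± 0.17 (SE, adjusted p = 0.0207) and 1.61 ± 0.11 (adjusted p = 1.09e-05) after scaling. The deposited fall in Med14 passed the threshold with all libraries and was lost without Med14_3IAA B or Med14_DMSO A or C (−0.38 to −0.31, adjusted p from 0.0668 to 0.148). The rises after scaling were smaller in Med15_Taf1 (0.76), CCL1 (0.36) and Med14C (0.19), and in Med17 TIP1 stood at −0.03 ± 0.09 (adjusted p = 0.796).

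HSP150, CCW12, CRH1 and SED1 fell further than the typical gene in Med14. HSP150 had 30.4, 36.5 and 35.1 in the Med14_3IAA libraries, against 395, 280.4 and 421 in the Med14_DMSO libraries, with a log2 change of −3.37 ± 0.17 (SE, adjusted p = 2.76e-18) and −1.32 after TMM scaling. CRH1 had 11, 14.8 and 12.5 in the Med14_3IAA libraries, against 119, 124 and 159 in the Med14_DMSO libraries, with a log2 change of −3.29 ± 0.17 (SE, adjusted p = 3.06e-18) and −1.28 after scaling. No depleted library reached the lowest control of either gene. CCW12 changed by −3.20 and SED1 by −2.86 on the deposited scale, and by −1.14 and −0.80 after scaling. CRH1 had scaled changes of −1.30 in CCL1, −1.04 in Med10, −0.74 in Med14C, −0.55 in Med17 and −0.27 in Med15_Taf1. SED1 did not follow it: its scaled change was 0.20 ± 0.17 (adjusted p = 0.313) in CCL1 and −0.11 ± 0.11 (adjusted p = 0.388) in Med10, and it rose by 0.35 in Med15_Taf1, as HSP150 did at 0.20. All 4 of these genes were lower on the deposited scale in all 6 strains.

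Against the typical gene FKS1 passed the threshold in 3 of these 6 strains and GSC2 in 4, in both directions. FKS1 had 105, 115 and 114 in the Med14_3IAA libraries, against 522, 429.8 and 572 in the Med14_DMSO libraries, with a log2 change of −2.17 ± 0.16 (SE, adjusted p = 1.05e-14) and −0.11 ± 0.11 (adjusted p = 0.434) after TMM scaling. GSC2 had 29.1, 24.5 and 25.9 in the Med14_3IAA libraries, against 237, 125 and 199.8 in the Med14_DMSO libraries, with a log2 change of −2.73 ± 0.19 (SE, adjusted p = 2.9e-15) and −0.69 ± 0.15 (adjusted p = 0.00399) after scaling. Depleted and control libraries did not overlap for either. After scaling FKS1 rose in CCL1 (0.47) and Med17 (0.19) and fell in Med15_Taf1 (−0.20), while GSC2 rose in Med14C (0.29) and Med15_Taf1 (0.31) and fell in Med10 (−0.21) as well as Med14. On the deposited scale both were lower in all 6 strains.

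Depletion of middle and hook subunits outside this group gave smaller falls. In Med7C, 8 of 9 tested members were lower (95.2% of genes), and after TMM scaling 6 lower (15.4%) and 1 higher (8.62%). In Med7N, 9 of 9 tested members were lower (99.2% of genes), and after TMM scaling 7 lower (21.6%). In Med31, 9 of 9 tested members were lower (97.3% of genes), and after TMM scaling 3 lower (20.4%) and 1 higher (17.9%). In Med19, 8 of 9 tested members were lower (97.7% of genes), and after TMM scaling 8 higher (21.4%). In Med19 the typical gene changed by −1.23, and the members' median was −0.81. TIP1 led there with 96.2, 103 and 81.7 in the Med19_3IAA libraries, against 114, 116 and 95.9 in the Med19_DMSO libraries, which overlap, and with 1.04 ± 0.05 (adjusted p = 2.59e-08) after TMM scaling. SED1 followed at 0.68, and CRH1 was the member that stayed with the typical gene, at −0.05 ± 0.05 (adjusted p = 0.43). The CWP1 value of −0.75 on the deposited scale moved to −0.47 without Med19_3IAA C and still passed.

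In Med31 CWP1 and CRH1 fell further than the other tested members. CWP1 had 5.19, 5.66 and 3.84 units of signal in the Med31_3IAA libraries, against 28.2, 23.6 and 15.9 in the Med31_DMSO libraries, with a log2 change of −1.98 ± 0.18 (SE, adjusted p = 1.03e-08) and −1.21 after TMM scaling. CRH1 had 76.7, 77.2 and 91.4 in the Med31_3IAA libraries, against 312, 317 and 353 in the Med31_DMSO libraries, with a log2 change of −1.99 ± 0.09 (SE, adjusted p = 1.6e-11) and −1.14 after scaling. Neither gene overlapped between the groups. CWP1 passed the filter in Med31 only through the controls, which favours finding a fall. CWP2 also fell relative to the typical gene (−0.61) and TIP1 rose (0.34), and the other 5 tested members were within 0.17 of it, none past the threshold.

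The split Med7 strains differed in CWP1, TIP1 and GSC2 on the deposited scale. CWP1 had 6.81, 6.25 and 3.48 units of signal in the Med7N_3IAA libraries, against 36.7, 39.7 and 30.9 in the Med7N_DMSO libraries. In the other strain it had 11.9, 10.3 and 7.8 in the Med7C_3IAA libraries, against 32.6, 32.4 and 27.1 in the Med7C_DMSO libraries. The change was −2.53 ± 0.11 in Med7N and −1.54 ± 0.12 in Med7C, a difference (Med7N minus Med7C) of −0.99 ± 0.20 (SE, adjusted p = 0.00141). CWP1 passed the filter in Med7N only through the controls, which favours finding a fall there. TIP1 changed by −0.95 in Med7N and by −0.21 in Med7C, where it passed with the replicate letter as a block (adjusted p = 0.0248), a difference of −0.74 ± 0.14 (SE, adjusted p = 0.00101). Of 9 tested members 3 differed (32.1% of genes), the third being GSC2 at −0.40 ± 0.14 (SE, adjusted p = 0.0362). After TMM scaling 2 differed (6.86% of genes), TIP1 at −0.44 ± 0.07 (SE, adjusted p = 0.00164) and SED1 at 0.37 ± 0.10 (SE, adjusted p = 0.0465), and CWP1 missed the threshold at −0.75 ± 0.23 (SE, adjusted p = 0.0661). The GSC2 difference was lost without Med7C_3IAA A or Med7C_DMSO A or C or Med7N_3IAA B or C or Med7N_DMSO A or B (−0.43 to −0.34, adjusted p from 0.0513 to 0.108), and without the filter on low values (adjusted p = 0.0522), and with a pseudocount of 5 (−0.34, adjusted p = 0.0565). CWP2, at −0.41 ± 0.18 (SE, adjusted p = 0.0648), passed without Med7C_3IAA C or Med7C_DMSO A or B or Med7N_3IAA A or Med7N_DMSO C (−0.59 to −0.41, adjusted p from 0.00476 to 0.0462), and FKS1 and CRH1 passed without Med7N_DMSO C (−0.35, adjusted p = 0.0368, and −0.36, adjusted p = 0.0228).

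Depletion of whole Med7 moved members less, in libraries whose controls stood apart. On the deposited scale 6 of 9 were lower (9.01% of genes) and 1 was higher (0.199%), and after TMM scaling 4 were lower (5.69%) and 1 higher (1.44%). CCW12 had 385, 309 and 346 units of signal in the Med7_3IAA libraries, against 638, 747 and 595 in the Med7_DMSO libraries, without overlap and with a log2 change of −0.93 ± 0.17 (SE, adjusted p = 6.06e-05). HSP150 and CRH1 changed by −0.88 and −0.88, and these 3 calls held without any 1 library. TIP1, the member that rose, had 69.2, 66.5 and 67.5 in the Med7_3IAA libraries, against 48.1, 50.5 and 34.5 in the Med7_DMSO libraries, with a log2 change of 0.62 ± 0.18 (SE, adjusted p = 0.0172). Its call was lost without Med7_3IAA A, B or C or Med7_DMSO C (0.45 to 0.63, adjusted p from 0.055 to 0.077). The CWP1 change of −0.89 was lost without Med7_3IAA C (−0.63, adjusted p = 0.12) and Med7_DMSO B (−0.85, adjusted p = 0.053). The CWP2 change of −0.67 was lost without Med7_3IAA A or C or Med7_DMSO A or B (−0.62 to −0.45, adjusted p from 0.0549 to 0.227), and without the filter on low values (adjusted p = 0.114), and the SED1 change of −0.57 without Med7_3IAA A or C or Med7_DMSO A or B (−0.58 to −0.28, adjusted p from 0.0779 to 0.479), and without the filter on low values (adjusted p = 0.236). After TMM scaling neither passed, at −0.49 ± 0.16 (adjusted p = 0.104) for CWP2 and −0.38 ± 0.18 (adjusted p = 0.252) for SED1.

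After depletion of the kinase Cdk8 or of Med12, both of the Mediator kinase module, wall genes rose while the typical gene did not move (median −0.01 in CDK8 and 0.06 in Med12). CWP1, CWP2, TIP1, SED1 and GSC2 rose in both strains. In CDK8 7 of 9 tested members were higher (7.53% of genes), and limma called 0 lower, as it did at an unadjusted p under 0.05 and as edgeR did on recovered reads. In Med12 5 were higher (12.5%) and 1 lower (4.84%). The members' medians were 0.82 and 0.43.

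CWP2 had 264, 232 and 188 units of signal in the CDK8_3IAA libraries, against 77.4, 67.7 and 55.1 in the CDK8_DMSO libraries, with a log2 change of 1.76 ± 0.13 (SE, adjusted p = 1.48e-06) and a mean 3.42-fold higher. CWP1 had 42.2, 42.6 and 28.1 in the CDK8_3IAA libraries, against 12.1, 12 and 10.6 in the CDK8_DMSO libraries, with a log2 change of 1.60 ± 0.14 (SE, adjusted p = 6.49e-06). SED1 had 1451, 1209 and 1015 in the CDK8_3IAA libraries, against 582, 538 and 514 in the CDK8_DMSO libraries, with a log2 change of 1.15 ± 0.12 (SE, adjusted p = 1.92e-05). For each of these 3 genes every depleted library was above every control. In CPM per kilobase the CDK8_DMSO level of CWP2, at 766, was the lowest of the 27 control groups outside stress (median 3431). CWP1 at 51.6 (median 144) and SED1 at 1720 (median 3667) were also below the median there. Whether these low controls bear on the rises was not tested. TIP1 had 126, 117 and 102 in the CDK8_3IAA libraries, against 77.1, 78.3 and 43.9 in the CDK8_DMSO libraries, and GSC2 had 86.8, 82.6 and 82.1 in the CDK8_3IAA libraries, against 47.4, 47.2 and 45.6 in the CDK8_DMSO libraries. Their changes were 0.82 ± 0.17 (adjusted p = 0.00604) and 0.83 ± 0.07 (adjusted p = 6.22e-06). FKS1 and CRH1 rose by 0.28 and 0.26. The FKS1 call was lost without CDK8_3IAA A, B or C or CDK8_DMSO B or C (0.23 to 0.31, adjusted p from 0.0521 to 0.101). The CRH1 call was lost without CDK8_3IAA A or C or CDK8_DMSO A, B or C (0.21 to 0.29, adjusted p from 0.0708 to 0.149), and without the filter on low values (adjusted p = 0.0562). HSP150 and CCW12 did not pass, at 0.17 (adjusted p = 0.269) and 0.23 (adjusted p = 0.257), and CCW12 passed without CDK8_DMSO A (0.37, adjusted p = 0.0282).

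**Figure D2:**
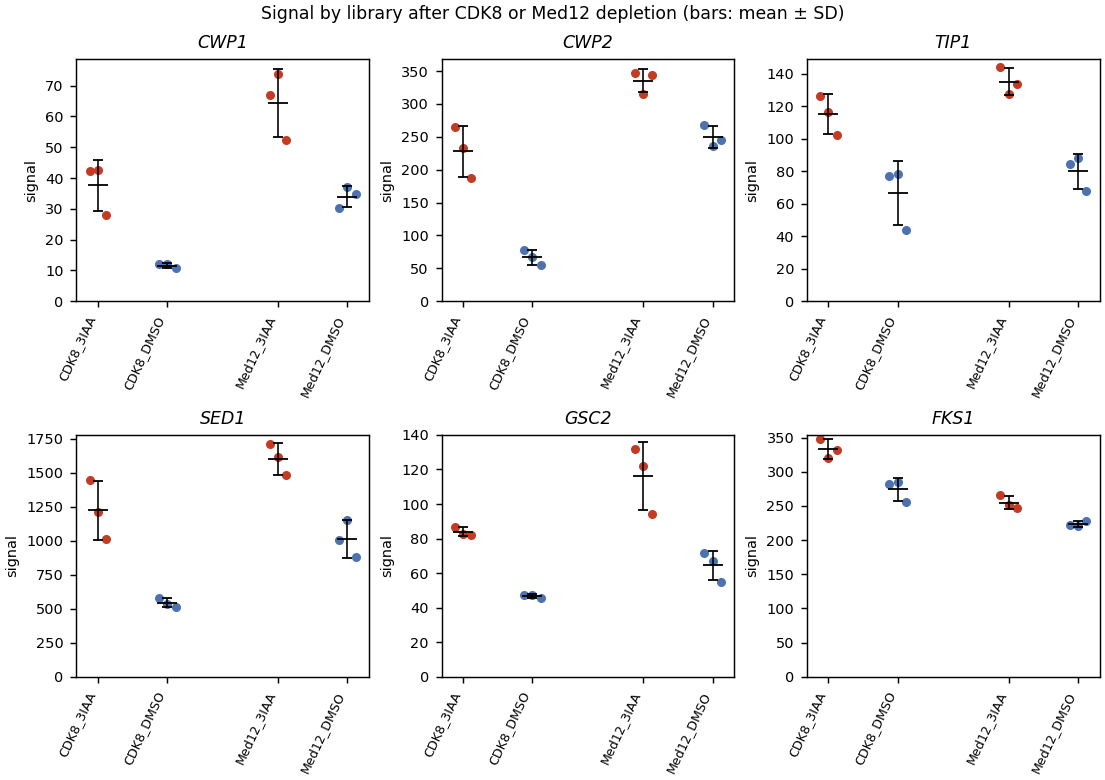
Signal of 6 members in each library (points) with the group mean and SD (bars), 3IAA left of DMSO, in the CDK8 and Med12 strains. All 3 CDK8_3IAA libraries lie above all 3 CDK8_DMSO libraries for each gene, with CWP2 means of 228 and 66.8.

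In the Med12 strain CWP1 had 67, 73.9 and 52.3 units of signal in the Med12_3IAA libraries, against 30.1, 36.9 and 34.7 in the Med12_DMSO libraries, with a log2 change of 0.90 ± 0.12 (SE, adjusted p = 0.000341). GSC2 had 132, 122 and 94.1 in the Med12_3IAA libraries, against 71.5, 66.8 and 55.1 in the Med12_DMSO libraries, with a log2 change of 0.83 ± 0.12 (SE, adjusted p = 0.000718). TIP1 rose by 0.76 ± 0.10 (adjusted p = 0.000223), SED1 by 0.67 ± 0.11 (adjusted p = 0.00114) and CWP2 by 0.43 ± 0.07 (adjusted p = 0.00208). The groups did not overlap for any of the 5. CCW12 was the member that fell, with 269.9, 249 and 252 in the Med12_3IAA libraries, against 347, 303 and 286 in the Med12_DMSO libraries and a log2 change of −0.28 ± 0.08 (SE, adjusted p = 0.0367). That call was lost without Med12_3IAA A, B or C or Med12_DMSO A or B (−0.31 to −0.20, adjusted p from 0.0554 to 0.128). FKS1, HSP150 and CRH1 did not pass, at 0.19 (adjusted p = 0.0665), 0.04 (adjusted p = 0.807) and −0.05 (adjusted p = 0.685). No test was made of the difference between CDK8 and Med12.

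In Med15, in TID, the tail-interacting part of Med14, and in Med15_Med16, depletion lowered HSP150, CCW12, CRH1 and SED1 together while the typical gene hardly moved. The median of all genes was 0.07, 0.04 and −0.02 there. After depletion of the tail subunits Med16 or Med5 these 4 did not all fall, as given below. In Med15 4 of 8 tested members were lower (4.45% of genes), in TID 6 of 9 (4.86%) and in Med15_Med16 8 of 9 (15.9%). Limma called 0 members higher in these strains. At an unadjusted p under 0.05 it was 1 in Med15 and 0 in the others, and edgeR on the recovered reads of Med15_Med16 also gave 0. The members' medians were −0.60, −0.75 and −0.93.

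HSP150 had 114, 128 and 125 units of signal in the Med15_3IAA libraries, against 339, 239.8 and 238 in the Med15_DMSO libraries, with a log2 change of −1.13 ± 0.19 (SE, adjusted p = 4.05e-07). In TID it had 721, 832 and 783 in the TID_3IAA libraries, against 1875, 2242 and 1856 in the TID_DMSO libraries, with a log2 change of −1.35 ± 0.15 (SE, adjusted p = 0.000184). In Med15_Med16 it had 961, 945 and 847 in the Med15_Med16_3IAA libraries, against 2072, 2079.6 and 1734 in the Med15_Med16_DMSO libraries, with a log2 change of −1.09 ± 0.15 (SE, adjusted p = 2.42e-12). The groups were separate in all 3 strains, and the depleted means were 2.22-, 2.56- and 2.14-fold lower. CCW12 had 222, 213 and 232 in the Med15_3IAA libraries, against 568, 396 and 352 in the Med15_DMSO libraries, with a log2 change of −0.95 ± 0.20 (SE, adjusted p = 7.18e-05). In TID CCW12 had 74.7, 65.5 and 53.1 in the TID_3IAA libraries, against 164, 153 and 135 in the TID_DMSO libraries, with a log2 change of −1.22 ± 0.14 (SE, adjusted p = 0.00031). In Med15_Med16 it had 404, 424 and 354 in the Med15_Med16_3IAA libraries, against 1007, 855 and 892 in the Med15_Med16_DMSO libraries, with a log2 change of −1.22 ± 0.13 (SE, adjusted p = 6.3e-18). Here too every depleted library lay below every control. SED1 changed by −1.001 ± 0.19 in Med15, −1.48 ± 0.15 in TID and −1.11 ± 0.15 in Med15_Med16, and CRH1 by −0.79, −0.89 and −0.68.

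**Figure D3:**
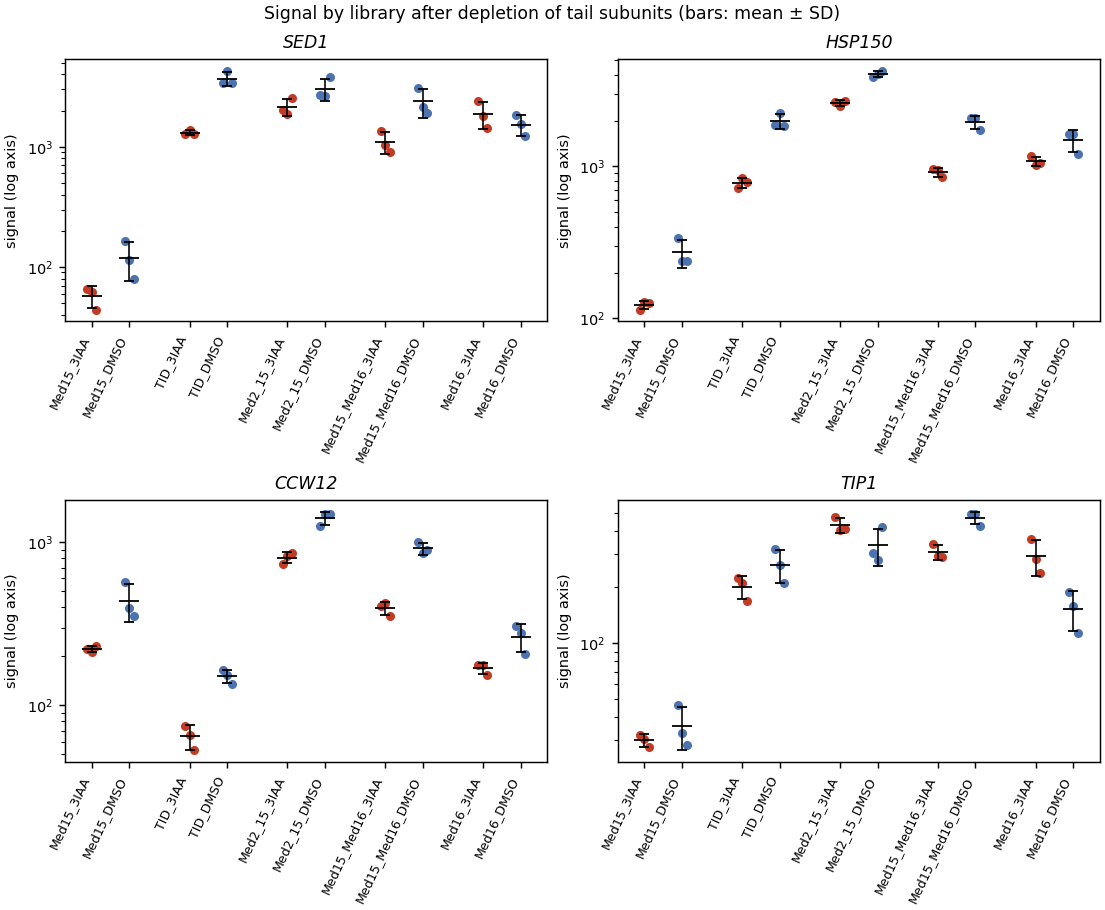
Signal (log axis) of SED1, HSP150, CCW12 and TIP1 in each library (points) with mean and SD (bars), 3IAA left of DMSO, in 5 strains with tail subunits or TID depleted. HSP150 and CCW12 are lower in every depleted library of Med15, TID, Med2_15, Med15_Med16 and Med16, and TIP1 is higher in Med16, with means of 294 and 153.

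The other members split in these strains. CWP1 and CWP2 fell in TID, with changes of −0.75 and −0.69, calls lost without TID_DMSO B (−0.65, adjusted p = 0.143) for CWP1 and without TID_3IAA C (−0.66, adjusted p = 0.0592) for CWP2. They fell in Med15_Med16, with changes of −1.50 (adjusted p = 6.6e-32) and −0.93 (adjusted p = 9.83e-11). In Med15 CWP1 was under the filter at 3.38, 3.05 and 3.37 in the Med15_3IAA libraries, against 13.5, 7.72 and 6.74 in the Med15_DMSO libraries, and CWP2 did not pass at −0.31 (adjusted p = 0.654). FKS1 and TIP1 fell in Med15_Med16 (−0.52 and −0.61) and did not pass in Med15 (−0.42 and −0.22) or TID (−0.47 and −0.38). After TMM scaling FKS1 fell in Med15 (−0.48 ± 0.10 (adjusted p = 0.00809)) and TID (−0.51 ± 0.10 (adjusted p = 0.0195)) as well. GSC2 was not lower past the threshold in any of the 3. It had 130.2, 162 and 166 in the Med15_3IAA libraries, against 120.0, 103 and 124 in the Med15_DMSO libraries, with a log2 change of 0.39 ± 0.19 (SE, adjusted p = 0.382). It passed without Med15_DMSO A (0.42, adjusted p = 0.0477), and in Med15_Med16 it passed as lower without Med15_Med16_DMSO C (−0.28, adjusted p = 0.0295). With the replicate letter as a block in TID, TIP1 and FKS1 passed (adjusted p = 0.00485 and 0.000934).

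In Med2_15 the typical gene rose by 0.32, 5 of 9 members were lower (3.42% of genes) and 2 higher (44.6%), and after TMM scaling 6 were lower (6.89%) and 1 higher (3.7%). GSC2 rose, with 676, 646 and 649.6 units of signal in the Med2_15_3IAA libraries, against 321, 344 and 419 in the Med2_15_DMSO libraries and a log2 change of 0.87 ± 0.12 (SE, adjusted p = 8.8e-05). CWP1 fell, with 47.9, 52.4 and 39.1 in the Med2_15_3IAA libraries, against 119, 96.3 and 93.8 in the Med2_15_DMSO libraries and a log2 change of −1.13 ± 0.15 (SE, adjusted p = 3.93e-05). Both genes kept their groups apart. HSP150 and CCW12 fell, with changes of −0.64 (adjusted p = 0.000298) and −0.80 (adjusted p = 0.000115). SED1 changed by −0.48 and CRH1 by −0.40. The SED1 call was lost without Med2_15_DMSO A (−0.56, adjusted p = 0.0506) and its change was −0.32 without Med2_15_DMSO C, and the CRH1 call was lost without Med2_15_3IAA B (−0.35, adjusted p = 0.0766). TIP1 passed as higher (0.38) but stood at 0.06 ± 0.10 (adjusted p = 0.759) after scaling, and its call was lost without Med2_15_3IAA A or B or Med2_15_DMSO A or B (0.26 to 0.42, adjusted p from 0.0519 to 0.198), and with edgeR on recovered reads (0.36, adjusted p = 0.0518). CWP2 passed without Med2_15_3IAA C (−0.40, adjusted p = 0.0352), against −0.20 (adjusted p = 0.4) with all libraries.

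After Med16 depletion TIP1 was higher and CCW12 lower on both scales, and CWP1 was higher on the deposited scale. On that scale 2 of 9 members were higher (1.17% of genes) and 1 lower (also 1.17%). TIP1 had 363, 282 and 237 units of signal in the Med16_3IAA libraries, against 189, 158 and 114 in the Med16_DMSO libraries, with a log2 change of 0.94 ± 0.18 (SE, adjusted p = 3.66e-05). CWP1 had 60.1, 72 and 66 in the Med16_3IAA libraries, against 31.6, 38.2 and 43.4 in the Med16_DMSO libraries, with a log2 change of 0.80 ± 0.17 (SE, adjusted p = 0.000382). CCW12 had 177, 178 and 155 in the Med16_3IAA libraries, against 308, 276 and 207 in the Med16_DMSO libraries, with a log2 change of −0.62 ± 0.18 (SE, adjusted p = 0.0357). The groups did not overlap for these genes. After TMM scaling 1 member was higher (2.14%), TIP1 at 0.88 ± 0.11 (adjusted p = 0.00623), and 3 were lower (3.55%). These were CCW12 at −0.68, HSP150 at −0.51 ± 0.08 (adjusted p = 0.011) and CRH1 at −0.35 ± 0.07 (adjusted p = 0.0249), while the CWP1 call was lost at 0.74 ± 0.21 (adjusted p = 0.0848). As deposited, the TIP1 call was lost without Med16_DMSO C (0.74, adjusted p = 0.0556), the CWP1 call without Med16_3IAA B (0.74, adjusted p = 0.0706) and the CCW12 call without Med16_3IAA A, B or C or Med16_DMSO A or B (−0.65 to −0.50, adjusted p from 0.228 to 0.546), and without the filter on low values (adjusted p = 0.0675). HSP150, at −0.45 (adjusted p = 0.483), passed without Med16_DMSO C (−0.59, adjusted p = 0.0266) and with the replicate letter as a block (adjusted p = 0.00447), as did GSC2 under the block (0.33, adjusted p = 0.037).

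Depletion of Med5 or Med1 raised 1 member each on the deposited scale, with more calls under other settings. In Med5 1 of 9 was higher (0.536% of genes), SED1, with 2843, 3299.8 and 2968 units of signal in the Med5_3IAA libraries, against 2068, 2255 and 2159 in the Med5_DMSO libraries and a log2 change of 0.49 ± 0.09 (SE, adjusted p = 0.0368). Its call was lost without Med5_3IAA B or C or Med5_DMSO A, B or C (0.43 to 0.52, adjusted p from 0.0828 to 0.156), and without the filter on low values (adjusted p = 0.106). With the replicate letter as a block 4 members passed in Med5, adding CWP1 (0.51, adjusted p = 0.000256), CWP2 (0.42, adjusted p = 5.12e-05) and GSC2 (0.27, adjusted p = 0.0127). In Med1 1 of 9 was higher (1.83%), CWP2, with 389, 366 and 354 in the Med1_3IAA libraries, against 278, 278 and 242 in the Med1_DMSO libraries and a log2 change of 0.48 ± 0.11 (SE, adjusted p = 0.0014). After TMM scaling 7 were higher in Med1 (4.68%), where the typical gene changed by −0.22. Without 1 library CWP1 passed as higher in Med1 (Med1_DMSO A (0.36, adjusted p = 0.02)) and CRH1 as lower (Med1_DMSO C (−0.18, adjusted p = 0.02)). In Med1_5, where the typical gene changed by −0.44, 2 of 9 were lower (78.0%), GSC2 at −0.38 and FKS1 at −0.37, and after scaling 4 were higher (3.33%), CWP2, TIP1, SED1 and CCW12. The GSC2 call was lost without Med1_5_3IAA A or C or Med1_5_DMSO A (−0.42 to −0.21, adjusted p from 0.0517 to 0.238) and the FKS1 call without Med1_5_3IAA A, B or C or Med1_5_DMSO A or B (−0.42 to −0.23, adjusted p from 0.0697 to 0.188), and without the filter on low values (adjusted p = 0.0719). CWP2 passed as higher without Med1_5_DMSO A (0.33, adjusted p = 0.0212) and CRH1 as lower without Med1_5_DMSO C (−0.44, adjusted p = 0.0287).

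In Med9 4 of 9 members were higher (37.4% of genes), with a median of all genes of 0.11, and after TMM scaling 4 were higher (25.3%) and 3 lower (24.3%). CWP2 rose most, with 334, 332 and 353 units of signal in the Med9_3IAA libraries, against 225, 178 and 211 in the Med9_DMSO libraries and a log2 change of 0.73 ± 0.07 (SE, adjusted p = 3.65e-08). HSP150, SED1 and CWP1 rose by 0.53, 0.52 and 0.41, again without overlap. GSC2, CCW12 and CRH1 fell slightly after scaling (−0.20, −0.20 and −0.13).

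In strains that lack Med15 or Med16 altogether, TIP1 and GSC2 rose and HSP150 fell. The signal of GAL11 was 1.05, 0.7 and 0.66 in med15del, against 80.9, 78.9 and 83.2 in WT, and that of SIN4 was 0.13, 0.17 and 0.13 in med16del, against 24.6, 23.5 and 25.2 in WT. In med15del 3 of 9 members were higher (87.6% of genes) and 4 lower (5.28%), and after TMM scaling 2 were higher (23.9%) and 7 lower (21.96%). In med16del 3 were higher (28.9%) and 2 lower (8.82%), and after scaling 2 were higher (19.8%) and 3 lower (19.7%). The typical gene changed by 0.52 in med15del and 0.14 in med16del. Both strains share the 3 WT libraries, so their values stand side by side without a test between them.

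TIP1 had 199, 198 and 159 units of signal in the med16del libraries, against 20.1, 19.5 and 22.9 in the WT libraries, which is a log2 change of 3.09 ± 0.12 (SE, adjusted p = 1.89e-148) and a mean 8.9-fold higher. In med15del it had 77.1, 87 and 71.8, with a log2 change of 1.87 ± 0.09 (SE, adjusted p = 5.94e-09) and 1.34 after TMM scaling. GSC2 had 88, 102 and 92.3 in the med15del libraries, against 19.9, 19.4 and 20.4 in the WT libraries, with a log2 change of 2.18 ± 0.07 (SE, adjusted p = 2.37e-10) and 1.65 after scaling. In med16del GSC2 had 57, 56.1 and 47.7, with a log2 change of 1.38 ± 0.11 (SE, adjusted p = 1.37e-33). In both strains no mutant library of TIP1 or GSC2 came near the WT range. CWP1 fell in med15del, with 3.09, 1.88 and 2.76 in the med15del libraries, against 14.7, 17.8 and 20.3 in the WT libraries and a log2 change of −2.38 ± 0.14 (SE, adjusted p = 5.3e-08), and in med16del it had 24.2, 18.6 and 16.3, which overlapped WT (0.15, adjusted p = 0.243). In med15del CWP1 passed the filter only through the WT libraries, which favours finding a fall.

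HSP150 fell in both, with changes of −0.98 ± 0.05 in med15del and −0.77 ± 0.11 in med16del, with 224, 235 and 228 and 285, 279 and 235 units against 447, 449 and 462 in WT. SED1 and CCW12 fell in med15del (−0.61 and −0.69) and did not pass in med16del (0.01 and −0.19), although CCW12 did after scaling (−0.33 ± 0.05 (adjusted p = 0.000512)). CRH1 turned with the scale in med15del, at 0.26 (adjusted p = 0.00324) as deposited and −0.27 ± 0.07 (adjusted p = 0.00755) after scaling, and FKS1 had no call (0.08) as deposited and −0.45 after scaling. The CRH1 fall in med16del (−0.30) was lost without med16del B or WT A, B or C (−0.32 to −0.29, adjusted p from 0.0681 to 0.13). The CWP2 rise there (0.33) was lost without med16del A or B or WT A or B (0.19 to 0.33, adjusted p from 0.0586 to 0.36), and without the filter on low values (adjusted p = 0.0878), and after TMM scaling (0.19, adjusted p = 0.169). FKS1 passed in med16del without med16del C (0.28, adjusted p = 0.0102), and CWP2 passed as lower in med15del without WT A (−0.24, adjusted p = 0.0409).

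**Figure D4:**
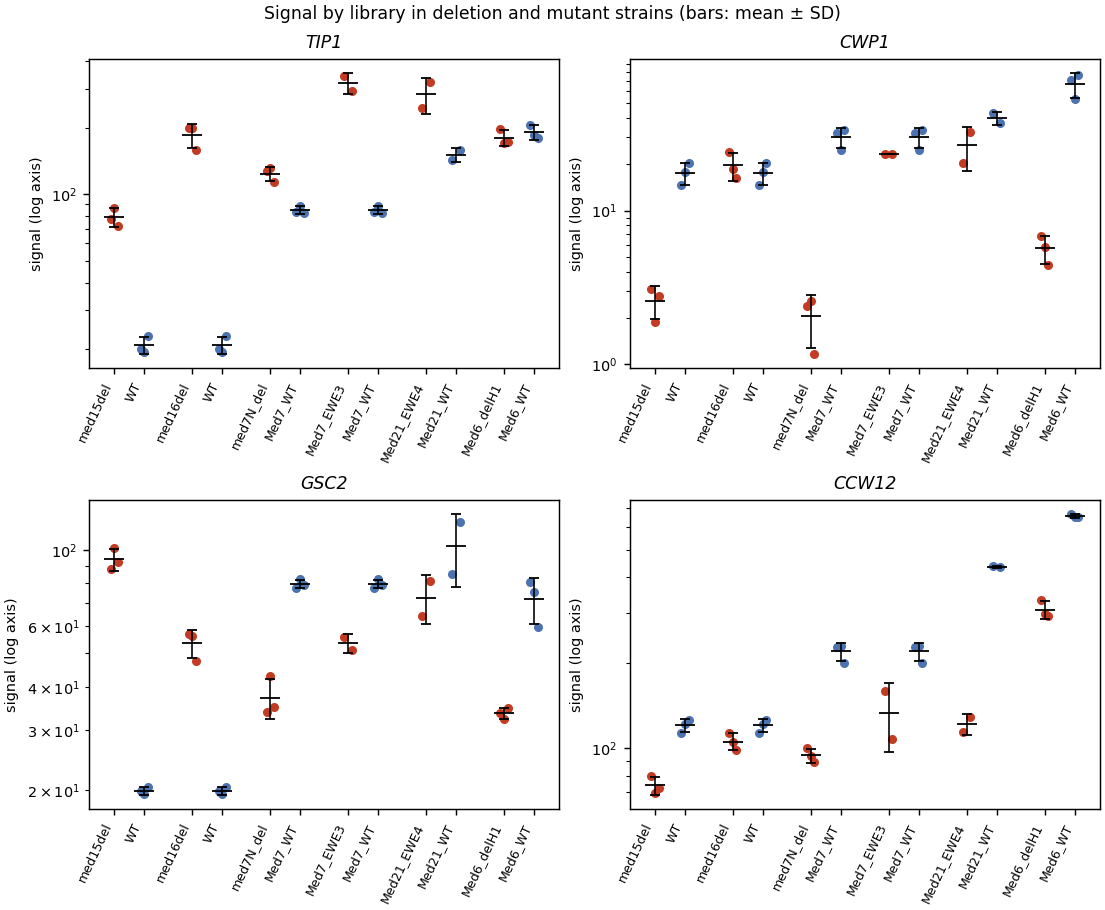
Signal (log axis) of TIP1, CWP1, GSC2 and CCW12 in each library (points) with mean and SD (bars), mutant left of its control, the WT and Med7_WT libraries being drawn with each mutant they serve. TIP1 is above its control in each mutant but Med6_delH1, with means of 317 in Med7_EWE3 and 84.8 in Med7_WT.

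TIP1 also stood against the rest in the mutants of the middle and head, where nearly every gene was lower. It rose on the deposited scale in Med7_EWE3, Med21_EWE4 and med7N_del. In Med7_EWE3, 8 of 9 members were lower (97.03% of genes) and 1 higher (0.602%), and after TMM scaling 1 lower (23.9%) and 6 higher (22.9%). In Med21_EWE4, 8 of 9 members were lower (98.3% of genes) and 1 higher (0.405%), and after TMM scaling 3 lower (8.06%) and 2 higher (5.2%). In med7N_del, 8 of 9 members were lower (99.04% of genes) and 1 higher (0.296%), and after TMM scaling 5 lower (18.02%) and 1 higher (18.3%). In Med6_delH1, 8 of 9 members were lower (99.8% of genes), and after TMM scaling 5 lower (10.4%) and 1 higher (10.9%). The member that was higher as deposited was TIP1 each time. It had 342 and 293 units of signal in the Med7_EWE3 libraries, against 83.1, 88.9 and 82.5 in the Med7_WT libraries, with a log2 change of 1.89 ± 0.13 (SE, adjusted p = 9.82e-10) and 2.99 after scaling. It had 245 and 319.7 in the Med21_EWE4 libraries, against 143 and 158 in the Med21_WT libraries, with a log2 change of 0.89 ± 0.21 (SE, adjusted p = 1.78e-05) and 2.07 after scaling. It had 127, 131 and 113 in the med7N_del libraries, against 83.1, 88.9 and 82.5 in the Med7_WT libraries, with a log2 change of 0.54 ± 0.12 (SE, adjusted p = 5.12e-06) and 1.61 after scaling. These groups did not overlap, with 2 libraries a mutant in the EWE strains. In Med6_delH1 the groups overlapped, at 197, 171 and 172 in the Med6_delH1 libraries, against 206, 185 and 180.3 in the Med6_WT libraries, and TIP1 changed by −0.08 as deposited and 1.08 ± 0.07 (adjusted p = 3.86e-05) after scaling. The Med21_EWE4 call was lost without Med21_WT A (0.82, adjusted p = 0.0607).

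Among these 4 mutants CWP1 fell furthest in med7N_del and Med6_delH1. It had 2.4, 2.57 and 1.16 units of signal in the med7N_del libraries, against 32.1, 24.9 and 33.4 in the Med7_WT libraries, with a log2 change of −3.38 ± 0.12 (SE, adjusted p = 6.14e-167) and a mean 14.8-fold lower. In the other strain it had 6.83, 5.76 and 4.42 in the Med6_delH1 libraries, against 70.5, 53.1 and 76.3 in the Med6_WT libraries, with a log2 change of −3.34 ± 0.14 (SE, adjusted p = 3.86e-128) and a mean 11.8-fold lower. After TMM scaling these were −2.49 and −2.26, and CWP2 fell in both as well (−0.65 and −0.68). CWP1 passed the filter in both only through the controls, which favours finding a fall. In the EWE mutants CWP1 turned with the scale, with values of −0.34 and −0.61 as deposited in Med7_EWE3 and Med21_EWE4, and 0.73 and 0.54 after scaling. The deposited call in Med7_EWE3 was lost without Med7_EWE3 A or B or Med7_WT A or C (−0.34 to −0.26, adjusted p from 0.0514 to 0.115), and that in Med21_EWE4 without Med21_EWE4 A or Med21_WT A or B (−0.71 to −0.28, adjusted p from 0.061 to 0.172), its change being −0.93 without Med21_EWE4 B.

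In Med21_EWE4 CCW12 and HSP150 fell further than the other tested members. CCW12 had 114 and 129 units of signal in the Med21_EWE4 libraries, against 438 and 434 in the Med21_WT libraries, with a log2 change of −1.83 ± 0.21 (SE, adjusted p = 4.68e-17) and −0.66 after TMM scaling. HSP150 changed by −1.65 as deposited and −0.48 after scaling, and CRH1 was lower after scaling in all 4 of these mutants, at −0.61 in med7N_del, −0.49 in Med6_delH1, −0.36 in Med7_EWE3 and −0.34 in Med21_EWE4. FKS1 and GSC2 stayed with the typical gene in med7N_del (−0.02 and −0.02) and Med6_delH1 (0.08 and 0.07), and GSC2 stood above it in Med7_EWE3 (0.52) and Med21_EWE4 (0.68). With so few libraries single ones mattered: in Med21_EWE4 the deposited falls of SED1 (−0.93) and GSC2 (−0.48) were lost without Med21_WT A (−0.84, adjusted p = 0.167) and Med21_WT B (−1.03, adjusted p = 0.0907) for SED1 and without Med21_WT A (−0.73, adjusted p = 0.0559) and Med21_WT B (−0.24, adjusted p = 0.523) for GSC2. Without Med21_EWE4 A they were −0.61 and −0.32. In Med7_EWE3 CWP2 (−0.75) was −1.14 without library A and −0.37 without library B, and CCW12 (−0.74) was −0.46 without library B.

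Under the stress labelled HS every member rose, with CWP1 and SED1 in front. Values in the stress experiment are CPM after TMM scaling, tested with edgeR over all 15 libraries, and a shift shared by all genes cannot be seen in them. In HS 10 of 10 members were higher (36.9% of genes). CWP1 had 645, 524 and 699 CPM in the Med15_DMSO_HS libraries, against 43.8, 54.3 and 42.9 in the Med15_DMSO_no_stress libraries, with a log2 change of 3.72 ± 0.14 (SE, adjusted p = 4.51e-13) and a mean 13.3-fold higher. SED1 had 11920.4, 11244 and 11858 in the Med15_DMSO_HS libraries, against 2484, 2486 and 2160.4 in the Med15_DMSO_no_stress libraries, with a log2 change of 2.30 ± 0.08 (SE, adjusted p = 2.75e-13). HSP150 had 8450.4, 8244 and 8069.5 in the Med15_DMSO_HS libraries, against 3864, 4071 and 3769 in the Med15_DMSO_no_stress libraries, with a log2 change of 1.08 ± 0.07 (SE, adjusted p = 2.94e-10). In all 3 the stressed libraries were well clear of the unstressed ones.

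CWP2 rose by 1.24 ± 0.11 and PIR3 by 1.26 ± 0.35 in HS. PIR3 was scarce, with 7.78, 7.64 and 7.89 CPM in the Med15_DMSO_HS libraries, against 3.97, 3.58 and 1.79 in the Med15_DMSO_no_stress libraries, without overlap (adjusted p = 0.00331). Its depth there was 43, 46 and 37 counts under HS, against 26, 22 and 8 without stress. The rises of FKS1, CCW12, GSC2 and CRH1 lay between 0.44 and 0.67, each with separate groups. TIP1 rose least, with 504, 654 and 748 in the Med15_DMSO_HS libraries, against 488, 519 and 477 in the Med15_DMSO_no_stress libraries, which overlap, and a log2 change of 0.36 ± 0.12 (SE, adjusted p = 0.0102), a call lost without Med15_DMSO_HS C (0.23, adjusted p = 0.0829).

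**Figure D5:**
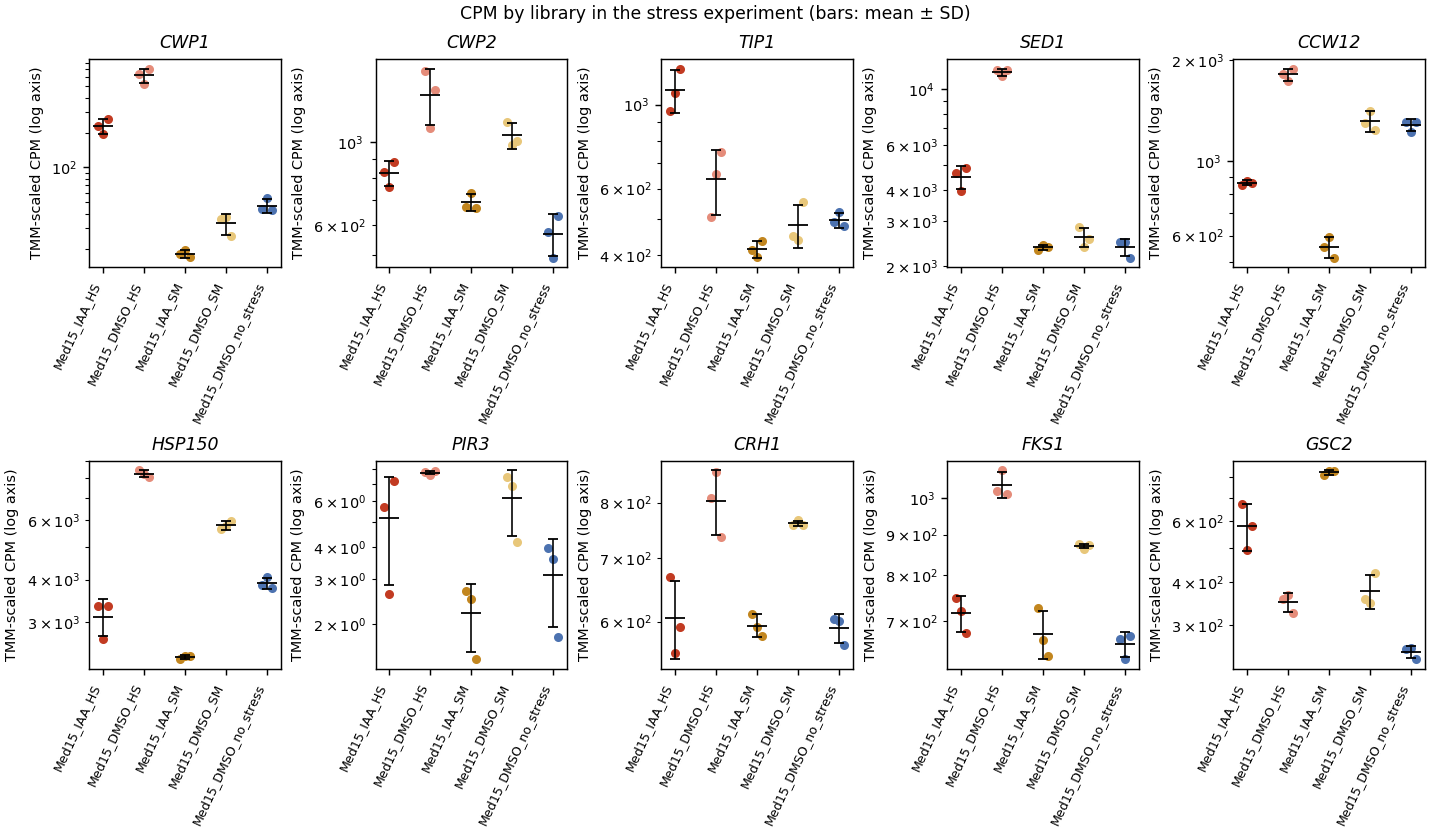
TMM-scaled CPM (log axis) of the 10 members in each of the 15 stress libraries (points) with mean and SD (bars), Med15-depleted (IAA) left of DMSO and no stress on the right. SED1 stands at 4498 in Med15_IAA_HS, 11674 in Med15_DMSO_HS and 2377 without stress, and GSC2 is highest in Med15_IAA_SM, at 827.

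Under SM 6 of 10 members rose (26.4% of genes) and 1 fell (26.2%). CWP2 rose most, with 1134, 981 and 1009 CPM in the Med15_DMSO_SM libraries, against 577, 492 and 636 in the Med15_DMSO_no_stress libraries and a log2 change of 0.88 ± 0.11 (SE, adjusted p = 2.61e-06). HSP150 had 5636, 5761 and 5979.6 in the Med15_DMSO_SM libraries, against 3864, 4071 and 3769 in the Med15_DMSO_no_stress libraries, with a log2 change of 0.57 ± 0.07 (SE, adjusted p = 3.04e-06). GSC2 and FKS1 rose by 0.58 and 0.41 and CRH1 by 0.37, all without overlap. PIR3 had 7.47, 6.89 and 4.17 in the Med15_DMSO_SM libraries, against 3.97, 3.58 and 1.79 in the Med15_DMSO_no_stress libraries, with a log2 change of 0.95 ± 0.34 (SE, adjusted p = 0.0268), a call lost without Med15_DMSO_no_stress C or Med15_DMSO_SM A or B (0.73 to 0.89, adjusted p from 0.0649 to 0.119). CWP1 was the member that fell, with 36.4, 37.2 and 25.5 in the Med15_DMSO_SM libraries, against 43.8, 54.3 and 42.9 in the Med15_DMSO_no_stress libraries and a log2 change of −0.51 ± 0.16 (SE, adjusted p = 0.0127). That call was lost without Med15_DMSO_no_stress B (−0.39, adjusted p = 0.0848) and Med15_DMSO_SM C (−0.36, adjusted p = 0.0719). TIP1, SED1 and CCW12 did not pass, at −0.04, 0.13 and 0.04 (adjusted p = 0.789, 0.182 and 0.633). HS and SM share their unstressed libraries, so their values are given side by side only.

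Med15 depletion under stress lowered HSP150 and CCW12 in both stresses and raised GSC2. In Med15_HS 7 of 10 members were lower (19.1% of genes) and 2 higher (15.8%), and in Med15_SM 7 were lower (27.1%) and 1 higher (21.02%). HSP150 had 3339.8, 2662 and 3332 CPM in the Med15_IAA_HS libraries, against 8450.4, 8244 and 8069.5 in the Med15_DMSO_HS libraries, with a log2 change of −1.41 ± 0.07 (SE, adjusted p = 2.67e-11). Under SM it had 2325, 2378 and 2369.8 in the Med15_IAA_SM libraries, against 5636, 5761 and 5979.6 in the Med15_DMSO_SM libraries, with a log2 change of −1.30 ± 0.07 (SE, adjusted p = 6.96e-11). CCW12 fell in both stresses, with changes of −1.07 ± 0.06 under HS and −1.25 ± 0.06 under SM. CWP2, FKS1 and CRH1 fell in both as well, with changes of −0.70, −0.54 and −0.41 under HS and of −0.59, −0.37 and −0.36 under SM. GSC2 had 813, 832 and 836 in the Med15_IAA_SM libraries, against 357, 348 and 425 in the Med15_DMSO_SM libraries, with a log2 change of 1.14 ± 0.09 (SE, adjusted p = 9.03e-09). Under HS it had 671, 493 and 579 in the Med15_IAA_HS libraries, against 357, 366 and 325 in the Med15_DMSO_HS libraries, with a log2 change of 0.73 ± 0.09 (SE, adjusted p = 4.45e-06). For HSP150 and GSC2 the groups were apart in both stresses.

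The effect of Med15 depletion differed between HS and SM for 4 of 10 members (28.5% of genes). SED1 had 4658, 3958 and 4878 CPM in the Med15_IAA_HS libraries, against 11920.4, 11244 and 11858 in the Med15_DMSO_HS libraries, and under SM 2317, 2421 and 2379 in the Med15_IAA_SM libraries, against 2843, 2389 and 2568 in the Med15_DMSO_SM libraries. It changed by −1.38 (adjusted p = 1.65e-10) under HS and changed by −0.13 (adjusted p = 0.177) under SM, a difference (HS minus SM) of −1.24 ± 0.11 (SE, adjusted p = 2.94e-07). TIP1 had 961, 1076 and 1245 in the Med15_IAA_HS libraries, against 504, 654 and 748 in the Med15_DMSO_HS libraries, and under SM 413, 395 and 436 in the Med15_IAA_SM libraries, against 450.2, 439.5 and 554 in the Med15_DMSO_SM libraries. It rose by 0.78 (adjusted p = 3.18e-05) under HS and changed by −0.21 (adjusted p = 0.141) under SM, a difference of 0.998 ± 0.16 (SE, adjusted p = 0.000221). These 2 differences held without any 1 library. CWP1 changed by −1.45 under HS and −0.87 under SM, with a difference of −0.59 ± 0.21 (SE, adjusted p = 0.0465), and GSC2 rose by 0.73 and 1.14, with a difference of −0.40 ± 0.13 (SE, adjusted p = 0.0244). The CWP1 difference was lost without Med15_DMSO_HS A or C or Med15_DMSO_SM C or Med15_IAA_HS A or B or Med15_IAA_SM A, B or C (−0.64 to −0.44, adjusted p from 0.0586 to 0.12). The GSC2 difference was lost without Med15_DMSO_HS B or Med15_DMSO_SM A or B or Med15_IAA_HS B or Med15_IAA_SM C (−0.40 to −0.31, adjusted p from 0.0511 to 0.0695). PIR3 fell under SM (−1.47, adjusted p = 0.00167) and did not pass under HS (−0.63, adjusted p = 0.129) unless Med15_IAA_HS C (−0.90, adjusted p = 0.0444) was left out, and its difference did not pass at 0.85 ± 0.47 (SE, adjusted p = 0.186) except without Med15_IAA_HS B (1.18, adjusted p = 0.0422). With the replicate letter as a block PIR3 under HS (adjusted p = 0.0481) and TIP1 under SM (−0.21, adjusted p = 0.00684) passed.

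Depletion of Taf1 beside Med15 was set against Med15 alone. The controls of these strains differ as described above, so strain, libraries and the second factor cannot be told apart. On the deposited scale all 9 tested members fell further in Med15_Taf1 (99.8% of genes differed). After TMM scaling 7 differed (49.04%), of which CWP1 was lower and 6 were higher. The scaled difference was −1.53 ± 0.19 (SE, adjusted p = 1.09e-05) for CWP1, 1.41 ± 0.21 (SE, adjusted p = 7.31e-05) for SED1, 1.38 ± 0.11 (SE, adjusted p = 1.85e-07) for HSP150 and 1.03 ± 0.12 (SE, adjusted p = 9.93e-06) for TIP1. It was 0.99 for CCW12, 0.57 for CRH1 and 0.28 for FKS1, and GSC2 and CWP2 did not pass (−0.03 and 0.25). Relative to the typical gene HSP150 changed by 0.20 in Med15_Taf1 and by −1.18 in Med15. The same Med15 libraries serve Med15_Med16, where 0 of 9 members differed (7.76% of genes), and 2 did at an unadjusted p under 0.05, CWP2 at −0.62 ± 0.25 (SE, adjusted p = 0.115) and GSC2 at −0.55 ± 0.23 (SE, adjusted p = 0.143). Without Med15_DMSO A, 3 passed, CWP2 (−1.04, adjusted p = 0.000725), TIP1 (−0.58, adjusted p = 0.0262) and GSC2 (−0.58, adjusted p = 0.0447), and with a pseudocount of 5, CWP1 (−0.63, adjusted p = 0.0159) and CWP2 (−0.63, adjusted p = 0.044) did.

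Over the 22 depletions, the scaled changes of the 8 members tested in all of them were compared with those of the 3247 genes tested in all. This is a description, since strains share their background and the controls of Med7, Med14 and Med15 stood apart. HSP150 and CCW12 were the closest pair of members (Pearson r 0.91), then CWP2 and CRH1 (0.90) and SED1 and HSP150 (0.88). TIP1 was least like the rest, from −0.05 with GSC2 to 0.40 with FKS1. The 3 genes most like each member were EGT2 (0.95), PIR1 (0.95) and ASH1 (0.94) for HSP150, TPI1 (0.95), EXG1 (0.94) and ZEO1 (0.93) for CCW12 and PMP1 (0.94), CIS3 (0.93) and ECM33 (0.92) for CRH1. They were PMP1 (0.92), CRH1 (0.90) and SVS1 (0.90) for CWP2, VHR2 (0.94), UTH1 (0.91) and MSB2 (0.89) for SED1 and SKS1 (0.87), RAX2 (0.85) and CLN3 (0.84) for FKS1. TIP1 and GSC2 had weaker matches, TAT1 (0.80), ADH1 (0.77) and MID1 (0.76) for TIP1 and MCM1 (0.70), SAC7 (0.67) and MSB2 (0.67) for GSC2. Leaving out Med7, Med14 and Med15, an alternative chosen after seeing the data, all 3 names were the same for SED1 and CRH1, 2 of 3 were for HSP150, CWP2, TIP1 and FKS1, 1 was for CCW12 and 0 were for GSC2.

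The other genes of the wall were counted in 7 lists, without the 10 members. In Med14, Med17, Med15_Taf1 and CCL1 every tested gene of every list was lower on the deposited scale, so for these 4 and med15del the counts below are those after TMM scaling, and so are the values of single genes in them and in Med15. After scaling, 28.6% of all genes were lower and 28.6% higher in Med14, and 28.5% and 26.4% in Med17. In Med15_Taf1 these shares were 38.5% and 36.4%, in CCL1 38.2% and 36.6% and in med15del 21.96% and 23.9%. In Med15 4.45% of all genes were lower as deposited. Under HS 37.6% were lower and 36.9% higher, and under SM 26.2% and 26.4%. A list count near these shares is no result about the list. The genes named are those with the largest called rise and fall of their list in a comparison.

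Genes of daughter cell separation, several of which make enzymes that cut the septum between mother and daughter, fell in most of these comparisons. In Med15 8 of 10 fell, with a median of −1.45, against 0.07 for all genes. After scaling they were 9 lower of 10 in med15del, 9 lower of 10 in Med14, 9 lower and 1 higher of 10 in Med17, 8 lower and 1 higher of 10 in CCL1 and 5 lower and 1 higher of 10 in Med15_Taf1. DSE2, a glucanase-like protein of the daughter wall, changed by −1.996 in Med15, −2.23 in med15del and −1.29 in Med17. PRY3 changed by −2.88 in Med14, −1.78 in CCL1 and −0.77 in Med15_Taf1. DSE1 rose against the typical gene in Med15_Taf1 (0.44). Under HS 7 of 10 fell and 1 of 10 rose, and under SM 9 of 10 rose and 1 of 10 fell. DSE2 changed by −1.01 and DSE4 by 0.20 under HS, and the glucanase gene SCW11 by 0.88 under SM.

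The other Pir genes went with HSP150 in most comparisons. In Med15 2 of 2 fell, and after scaling 2 of 2 were lower in Med14, Med17, CCL1 and med15del. PIR1 changed by −1.08 in Med15, −1.58 in med15del and −1.35 in Med14, and CIS3 by −1.62 in CCL1 and −0.43 in Med17. In Med15_Taf1 they parted, PIR1 at 0.44 and CIS3 at −0.30. Under HS and SM 2 of 3 rose, led by CIS3 under HS (0.76) and PIR5 under SM (1.44).

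Of the other mannoproteins 1 of 3 fell in Med15, PST1, a GPI protein raised by wall damage, at −1.06, and in med15del it changed by −1.47. After scaling the list was 2 lower of 4 in Med14, 1 lower and 3 higher of 5 in Med17, 3 lower and 4 higher of 9 in Med15_Taf1, 3 lower and 1 higher of 6 in CCL1 and 3 lower and 1 higher of 4 in med15del. ECM33 changed by −0.59 in Med14 and −0.19 in Med17, SPI1 by −1.23 in Med15_Taf1 and YGP1 by −1.32 in CCL1. FLO11, the flocculin of filamentous growth, stood above the typical gene in Med17 (1.06), Med15_Taf1 (1.03) and CCL1 (0.85), and DAN4 did in med15del (0.74). Under HS 4 of 12 rose and 6 of 12 fell, from SPI1 at 3.66 to TIR4 at −1.85. Under SM 3 of 12 rose and 3 of 12 fell, from PST1 at 0.47 to TIR1 at −1.27.

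Among the remodelling enzymes 4 of 14 fell in Med15, the glucanase gene EXG1 most (−1.13). After scaling the list was 8 lower of 14 in Med14, 6 lower and 1 higher of 14 in Med17, 8 lower and 4 higher of 15 in Med15_Taf1, 9 lower and 2 higher of 14 in CCL1 and 6 lower and 1 higher of 11 in med15del. GAS1, the main β-1,3-glucanosyltransferase, changed by −1.80 in Med14 and −0.65 in Med17, GAS3 by −1.11 in Med15_Taf1 and −1.06 in CCL1, and UTH1 by −1.22 in med15del. Above the typical gene were GAS5 in Med15_Taf1 (0.85) and Med17 (0.27), UTR2, which like CRH1 joins chitin to glucan, in CCL1 (0.29), and KRE6 of β-1,6-glucan synthesis in med15del (0.43). Under HS 6 of 16 rose and 6 of 16 fell (GAS4 1.06, UTR2 −0.78). Under SM 7 of 16 rose and 2 of 16 fell (UTH1 0.44, CRR1 −0.39).

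Of the other genes of glucan synthase and its regulators limma called 0 of 6 in Med15 in either direction, and 0 at an unadjusted p under 0.05. After scaling the list was 1 lower of 6 in Med14, 1 lower of 6 in Med17, 3 lower and 2 higher of 6 in Med15_Taf1, 2 lower and 2 higher of 6 in CCL1 and 1 lower and 3 higher of 6 in med15del. SMI1, a regulator of wall synthesis, fell most in the first 4 of these, with −1.39, −0.71, −1.15 and −0.83. RHO1, the GTPase subunit that activates the synthase, changed by −0.41 in med15del after scaling and by 0.09 as deposited. The GTPase-activating protein genes BEM2 and SAC7 were the highest in CCL1 (0.41) and med15del (0.54), and TUS1, an exchange factor of Rho1, was in Med15_Taf1 (0.15). Under HS 1 of 7 rose, RHO1 at 0.79, and 3 of 7 fell, ROM2 most at −0.61. Under SM 1 of 7 rose, TUS1 at 0.15, and 3 of 7 fell, RHO1 most at −0.40.

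Of the chitin synthesis genes limma called 0 of 10 in Med15 in either direction, and 0 at an unadjusted p under 0.05. CHS1, the chitin synthase of septum repair, changed there by −0.41 after scaling, which passed, and by −0.35 as deposited, which did not. After scaling the list was 5 lower and 2 higher of 10 in Med14, 3 lower and 2 higher of 11 in Med17, 6 lower and 1 higher of 11 in Med15_Taf1, 3 lower and 3 higher of 11 in CCL1 and 1 lower and 2 higher of 7 in med15del. CHS1 changed by −0.62 in Med14 and −0.26 in med15del, where its deposited change was 0.27. GNA1, an enzyme of UDP-N-acetylglucosamine synthesis, changed by −1.60 in CCL1, −1.20 in Med15_Taf1 and −0.69 in Med17. CHS6, which helps carry Chs3 to the plasma membrane, stood above the typical gene in CCL1 (0.85), Med14 (0.65) and Med17 (0.48), SKT5 did in Med15_Taf1 (0.16) and GFA1 in med15del (0.34). Under HS 5 of 11 rose and 3 of 11 fell, from GFA1, the first enzyme of the chitin precursor pathway, at 0.93 to CHS1 at −0.36. Under SM 2 of 11 rose and 3 of 11 fell, from CHS1 at 0.20 to GNA1 at −0.54.

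Integrity signalling genes were 1 of 17 lower in Med15, WSC4, a sensor of the pathway, at −0.85, and 15 of 16 were higher on the deposited scale in med15del, near the 87.6% of all genes. After scaling they were 3 lower and 7 higher of 16 in med15del, 8 lower and 3 higher of 15 in Med14, 3 lower and 5 higher of 16 in Med17, 6 lower and 8 higher of 18 in Med15_Taf1 and 4 lower and 9 higher of 16 in CCL1. WSC4 changed by −1.87 in Med14 and −1.67 in med15del. The sensor gene WSC2 changed by −1.09 in Med15_Taf1, −0.79 in CCL1 and −0.53 in Med17. The kinase gene MKK1 stood highest in Med15_Taf1 (1.12) and Med14 (0.85), the phosphatase gene MSG5 in Med17 (0.96), the sensor gene MTL1 in CCL1 (1.06) and SWI4, a subunit of the factor SBF, in med15del (0.76). Under HS 3 of 19 rose and 12 of 19 fell, from the phosphatase gene SDP1 at 1.32 to another phosphatase gene, PTP3, at −1.16. Under SM 3 of 19 rose and 5 of 19 fell, from MSG5 at 0.53 to SDP1 at −1.18.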

How the data were processed

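Newly made RNA, labelled with 4-thioU per the labels' protocols, was measured in 177 libraries of 60 groups, formed from the titles. The deposited files of 162 libraries hold a scaled signal per gene whose basis is not given in the sources used here, and the deposited files of the 15 stress libraries hold raw counts. Per the submitters' processing notes Bowtie2, HTSeq, sacCer3 and ASM294v2 were used, with roles and versions not given in the sources used here. Signal values of 106 libraries were whole multiples of 1 read for at least 96.52% of values (within 0.1 of a step), which gave their depth.

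The 10 members and the 7 lists were chosen with earlier results of these data known. Signal was tested with limma 3.58.1 (trend) on log2(signal + 1), over genes with a mean of at least 10 in the 2 groups, on the deposited scale and, as an alternative, after TMM scaling. Counts were tested with edgeR 4.0.16 (quasi-likelihood, TMM, expression filter) in 1 fit of 15 libraries. P-values were adjusted over all tested genes by Benjamini and Hochberg, at 0.05. Other alternatives were a pseudocount of 0.1 or 5, no filter, edgeR on recovered reads, DESeq2 1.42.0, RLE size factors, fits of 2 groups, each library left out, and the replicate letter as a block. The limma test without scaling and the edgeR test were checked on simulated data with 2 groups of 3 libraries. Changes were placed in genes well above the filter, without a shift shared by all genes. The scaled fits, the tests of differences, the fit of all 15 stress libraries and the other alternatives were not simulated. The labels do not say that replicates were separate cultures, so p-values measure the spread between these samples, which may be technical. Limma sets each gene's spread partly from a trend over all genes, to a degree that differs between comparisons. The sizes of p-values and SEs are therefore not comparable between comparisons. Where p-values are extremely small, as in med16del and med7N_del, they reflect that trend more than the gene's own replicates. The letters pair the libraries, by deviations that correlate over 0.1 in every one of 3 pairs, in 15 of 32 comparisons. Every member is named, of each list the largest called rise and fall in 8 comparisons, and for each member the 3 genes most like it. Some items that this rule names are not reported here, and 5 of 10 promoter windows are shown. Med15_Spt7_DMSO, named by its title, served as a control group for levels, for the correlations between controls and for the α-cell and a-cell genes, and entered no test. R 4.3.3, Python 3.11.15, pandas 2.3.3, numpy 2.4.6 and matplotlib 3.10.9 were used.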

Additional observations from a re-analysis of the deposited data

Results flagged for a closer look

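A test of the difference itself found 16 cases in which a member's change differed between 2 strains or stresses. On the deposited scale the change in Med15_Taf1 minus that in Med15 was −3.99 for CWP1, −2.64 for GSC2, −2.39 for CWP2, −2.35 for FKS1, −2.06 for CRH1, −1.65 for CCW12, −1.60 for TIP1, −1.27 for HSP150 and −1.24 for SED1. In that pair 99.8% of all genes differed, and 7 of the 9 turned their sign after TMM scaling, all but CWP1 and GSC2.

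Between the split Med7 strains, Med7N minus Med7C, the change differed by −0.99 for CWP1, −0.74 for TIP1 and −0.40 for GSC2. After TMM scaling TIP1 still differed, and CWP1 and GSC2 did not pass (−0.75 and −0.10).

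Between the stresses, the change on Med15 depletion under HS minus that under SM was −1.24 for SED1, 0.998 for TIP1, −0.59 for CWP1 and −0.40 for GSC2. On depletion under HS SED1 fell and TIP1 rose, while neither passed under SM. GSC2 rose in both stresses and CWP1 fell in both.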

How the results depend on the processing

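Among the member changes, TMM scaling left 175 of 277 with the same call, ended 30 calls, added 17 and turned the sign of 55. A sign was counted as turned only where the change was called as deposited or after scaling. Turns without a call on either scale are among the 175. The signs turned, with the scaled log2 change in brackets, were as follows. In CCL1 they were those of TIP1 (0.36), SED1 (0.20), GSC2 (0.18) and FKS1 (0.47). In Med1 it was that of FKS1 (0.21). In Med1_5 they were those of TIP1 (0.38), GSC2 (0.057), FKS1 (0.073) and CCW12 (0.37). In Med2_15 it was that of FKS1 (−0.30). In Med7C they were those of TIP1 (0.31) and GSC2 (0.016). In Med10 it was that of TIP1 (1.60). In Med14 it was that of TIP1 (1.61). In Med14C they were those of TIP1 (0.19) and GSC2 (0.29). In Med15_Taf1 they were those of TIP1 (0.76), SED1 (0.35), GSC2 (0.31) and HSP150 (0.20). In Med17 they were those of SED1 (0.087) and FKS1 (0.19). In Med19 they were those of CWP1 (0.46), CWP2 (0.44), TIP1 (1.04), SED1 (0.68), GSC2 (0.32), FKS1 (0.31), HSP150 (0.46) and CCW12 (0.48). In Med31 it was that of TIP1 (0.34). In med15del they were those of FKS1 (−0.45) and CRH1 (−0.27). In Med7_EWE3 they were those of CWP1 (0.73), CWP2 (0.35), SED1 (0.37), GSC2 (0.52), FKS1 (0.29), HSP150 (0.18) and CCW12 (0.36). In Med21_EWE4 they were those of CWP1 (0.54), SED1 (0.24), GSC2 (0.68) and FKS1 (0.18). In Med6_delH1 they were those of TIP1 (1.08), GSC2 (0.073), FKS1 (0.084) and CCW12 (0.065). In Med15_Taf1 minus Med15 they were those of CWP2 (0.25), TIP1 (1.03), SED1 (1.41), FKS1 (0.28), HSP150 (1.38), CCW12 (0.99) and CRH1 (0.57). TMM scaling takes the typical gene as unchanged by construction. On the deposited scale the median log2 change of all genes in these comparisons ran from −2.56 to 0.52, and was nearest to 0 in Med1 at −0.22.

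Counts of members past the threshold that scaling moved by over 1.5 times became those of CCL1 (5 lower, 2 higher), Med1 (7 higher), Med1_5 (0 lower, 4 higher), Med2_15 (1 higher), Med7C (1 higher), Med9 (3 lower), Med10 (1 higher), Med14 (1 higher), Med14C (2 higher), Med15_Taf1 (3 lower, 4 higher), Med16 (3 lower, 1 higher), Med17 (3 lower, 1 higher), Med19 (0 lower, 8 higher), Med31 (3 lower, 1 higher), med15del (7 lower), med7N_del (5 lower), Med7_EWE3 (1 lower, 6 higher), Med21_EWE4 (3 lower, 2 higher) and Med6_delH1 (5 lower, 1 higher). Without the filter on low values the counts were 0 higher in Med5, 1 lower in Med1_5, 0 lower in Med16, 1 higher in Med19, 1 higher in Med31, 2 higher in Med7_EWE3 and 2 higher in Med21_EWE4. With edgeR on recovered reads 1 was higher in Med2_15, and with a pseudocount of 5 the difference Med15_Med16 minus Med15 passed for 2. Leaving out 1 library at a time, the counts that moved by over 1.5 times in at least 1 fit ran over 0 to 1 lower in Med12, 0 to 1 lower in Med1, 1 to 2 higher in Med1, 0 to 1 higher in Med5, 0 to 3 lower in Med1_5, 0 to 1 higher in Med1_5, 1 to 2 higher in Med2_15, 3 to 6 lower in Med7, 0 to 1 higher in Med7, 0 to 1 higher in Med15, 0 to 2 lower in Med16, 1 to 2 higher in Med16, 1 to 2 lower in med16del, 5 to 8 lower in Med21_EWE4, 0 to 1 higher in Med21_EWE4, 0 to 1 lower in SM, 0 to 3 differing in Med15_Med16 minus Med15, 2 to 6 differing in Med7N minus Med7C and 2 to 4 differing in Med15_HS minus Med15_SM.

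With the replicate letter as a block the counts that moved by over 1.5 times became 2 higher in Med1, 4 higher in Med5, 2 lower in Med16, 1 lower in med16del and 5 differing in Med7N minus Med7C. Of 327 member changes the block kept 307, added 17 calls and ended 3. Where the letters do not pair the libraries, it ended the calls of CWP2 in med16del (adjusted p = 0.0892), CRH1 in med16del (adjusted p = 0.1) and CWP1 in Med7_EWE3 (adjusted p = 0.214) and added those of CCW12 in CDK8 (adjusted p = 0.0218), FKS1 in Med12 (adjusted p = 0.0368), CWP1 in Med1 (adjusted p = 0.0376), HSP150 in Med1_5 (adjusted p = 0.0417) and TIP1 in Med19 (adjusted p = 0.00342) and the differences of CWP2 and CRH1 between Med7N and Med7C (adjusted p = 0.0135 and 0.0169). Where they do, it changed no call other than those given in the report. One library left out kept 2022 of 2153 values, ended 106 calls and added 25. Leaving out the filter kept 319 of 327, a pseudocount of 5 274 of 277 and edgeR on recovered reads 98 of 99. A pseudocount of 0.1 (250 values), DESeq2 and RLE size factors (50 each) and fits of the 2 stress groups alone (40) changed no call and no direction of a called change. Where no cause is given above, the cause was not tested. Low values limit PIR3 most, and CWP1 in Med17, where its signal was at most 0.2 in Med17_3IAA, against at most 2.42 in Med17_DMSO.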

Other observations

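PIR3 was under the filter on low values in all 28 signal comparisons, so its values there are given without a test. It had 2.94, 2.07 and 1.59 units of signal in Med16_3IAA, against 0.24, 0.51 and 0.59 in Med16_DMSO, and 2.19 and 2.6 in Med7_EWE3, against 0.49, 0.58 and 0.59 in Med7_WT. It had 1.49, 2.42 and 2.18 in Med12_3IAA, against 0.76, 0.77 and 1.01 in Med12_DMSO. Lower values in the depleted cells were found in Med14C, with 0.88, 1.45 and 0.91 in Med14C_3IAA, against 2.74, 3.86 and 3.15 in Med14C_DMSO, and in Med15_Taf1, with 0.31, 0.22 and 0.47 in Med15_Taf1_3IAA, against 0.87, 1.08 and 1.17 in Med15_Taf1_DMSO. These 5 comparisons were chosen after their values were seen. The group means of PIR3 ran from 0.303 to 4.94 units over the signal groups, the highest being TID_3IAA.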
